A study of Rattus norvegicus with 16 samples.

Results

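The genes described are 39 rat genes of the endoplasmic reticulum (ER), namely its chaperones, the sensors of the unfolded protein response, and the machinery that sends misfolded proteins out of the ER to be degraded. They are the rows of the deposited count table whose gene column equals 1 of 40 listed symbols, which found 39 of the 40 among 32623 genes, while Crelf has no row and was not analysed here. By role they fall into 6 classes: 10 genes of the Hsp70 system and stress proteins of the lumen, 2 lectin chaperones, 6 disulfide enzymes, 3 sensors or their transcription factors, 12 genes of ER-associated degradation, and 6 genes of the translocon and the signal peptidase. The study asked how acid medium changes the RNA of kidney epithelial cells and fibroblasts that share their medium. NRK-52E, a rat kidney epithelial line, was grown on filter inserts, and NRK-49F, a rat kidney fibroblast line, was grown in the wells beneath, so the support differed along with the line. After 24 h without serum the co-cultures were kept for 48 h at pH 7.4 or at pH 6.0, which the labels write as pH7 and pH6. RNA enriched for poly(A) was sequenced in 16 libraries, 4 for each of the 4 groups. The groups were NRK-52E at pH 7.4 (libraries N1, N2, N5 and N6), NRK-52E at pH 6.0 (N3, N4, N7 and N8), NRK-49F at pH 7.4 (N9, N10, N13 and N14) and NRK-49F at pH 6.0 (N11, N12, N15 and N16). Nothing in the labels says that the libraries came from separate cultures, so p-values measure the spread between these samples.

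The ER folds proteins bound for secretion or for membranes: BiP and its co-chaperones hold unfolded chains, calnexin and calreticulin hold glycoproteins, and disulfide isomerases set the bonds between cysteines. When unfolded proteins build up, the sensors IRE1, PERK and ATF6 raise the transcription of these same folding genes, slow translation, and increase the capacity to retrotranslocate proteins to the proteasome. In the kidney this response is known from tubular cells under toxic, ischemic or protein-overload injury, and fibroblasts rely on the same machinery to fold and export collagen.

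Library totals ran from 17760185 to 20612657 counts for NRK-52E at pH 7.4, from 16844811 to 23856187 for NRK-52E at pH 6.0, from 17518187 to 27607214 for NRK-49F at pH 7.4, and from 16201084 to 34784862 for NRK-49F at pH 6.0. Levels are given as fragments per 1000000 counted (FPM) after scaling for library composition, in the order of the library numbers, with the 4 libraries at pH 7.4 (neutral) before the 4 at pH 6.0 (acid), and no gene lengths enter them, so the most abundant gene of a list below is the 1 with the most counts. In bulk RNA, fewer cells of a type and less RNA per cell cannot be told apart. Library N8 stood apart from the other NRK-52E libraries at pH 6.0: the standard deviation (SD), over 9754 genes, of its log2 ratio to the mean of the other 3 was 0.485, against 0.124 to 0.342 for the other 15 libraries. Among the members, Atf6 (-1.62), Edem3 (-1.49), Ern1 (-1.08) and Edem1 (-1.02) had low log2 ratios in N8, and Edem2 (0.66), Sec61b (0.66) and Sec61g (0.53) had high ones. The largest of the other SDs, 0.342, was that of N13, an NRK-49F library at pH 7.4, with Edem3 at -1.71, Atf6 at -0.99 and Sec61g at 0.55. The part of these libraries' quality in the results was not tested, and counts of called members without them are given below. The column names also carry a number of unstated meaning, 21 (N1 to N4) or 22 (N5 to N8) for NRK-52E and 20 (N9 to N12) or 21 (N13 to N16) for NRK-49F, and each number holds 2 libraries of each pH.

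The identity of the lines was checked on marker genes. In NRK-52E, 10 epithelial markers summed to 542, 502, 470.01 and 536 FPM at pH 7.4 and 377, 311, 347 and 333 FPM at pH 6.0. The NRK-49F sums were 825, 786, 949 and 842 FPM for neutral and 207, 221, 204 and 199 FPM for acid medium. The keratin Krt8 was the most abundant of them in all 16 libraries, so the sum does not separate the lines. E-cadherin (Cdh1) averaged 1.62 FPM in NRK-52E at pH 7.4 and 0.315 FPM at pH 6.0, Epcam averaged 0.0221 and 0.0118 FPM, and Esrp1 was at 0 in all 4 groups, so these defining markers are at or near 0 in the epithelial line. Occludin (Ocln, 41.2 against 0 FPM at pH 7.4) and Krt7 (36.7 against 0.463 FPM) were found mainly in NRK-52E. Of 11 proximal tubule markers, summed levels in NRK-52E were 46.1, 42.5, 28.3 and 35.7 FPM at pH 7.4 and 29.7, 32.9, 25.3 and 35.6 FPM at pH 6.0, with Aqp1 the most abundant. In NRK-49F the same sums were 129, 119, 146 and 157 FPM and 357, 381, 546 and 543 FPM, with Ggt1 the most abundant, and Slc34a1, Slc5a1, Lrp2 and Hnf4a averaged under 1 FPM in every group.

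The 12 fibroblast markers summed to 25335, 25922, 23592 and 27454 FPM in NRK-49F at pH 7.4 and to 19880.5, 18907, 18587 and 18937 FPM at pH 6.0, with Fn1 the most abundant in 5 libraries and Col1a1 in 3. In NRK-52E they summed to 7674, 7651, 7335 and 7231 FPM at pH 7.4 and to 3792, 3669, 3143 and 2406 FPM at pH 6.0, with Col3a1 the most abundant in all 8. Col1a1 averaged 6205 FPM in NRK-49F and 23.6 FPM in NRK-52E at pH 7.4, and Pdgfra 392 and 0.286 FPM. Col3a1 went the other way, at 6221 FPM in NRK-52E and 458 FPM in NRK-49F, and Thy1 was at 0 in all 4 groups. At pH 6.0, 7 of 9 tested fibroblast markers and 5 of 5 tested epithelial markers were called lower in NRK-52E by the rule given below, where 28.5% of all tested genes were, and 5 of 10 and 1 of 2 were in NRK-49F, where 19.4% were. Of 5 leukocyte and endothelial markers, Ptprc and Kdr were at 0 and Cd68 was the most abundant in all 16 libraries, and the sum was 2.998, 1.97, 2.4 and 1.67 FPM in NRK-52E at pH 7.4 and 2.02, 2.7, 2.42 and 2.77 FPM at pH 6.0. The NRK-49F sums were 63.05, 72.9, 97.6 and 92.6 FPM at pH 7.4 and 225, 226, 263 and 258 FPM at pH 6.0. The part of these marker changes in the ER results was not tested.

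At pH 6.0, 28 of the 39 ER genes rose in NRK-52E cells and 10 rose in NRK-49F cells. A gene is called where its false discovery rate (FDR) over all tested genes is below 0.01 in both edgeR and DESeq2, and log2 fold changes compare pH 6.0 with pH 7.4 unless stated. All 39 members passed the filter on low counts in every comparison. In NRK-52E, 28 of 39 members (71.8%) were called higher, where 28.2% of 13735 tested genes were, and 3 (7.69%) were called lower, where 28.5% of the tested genes were. The median log2 fold change of the members was 0.90, and that of all tested genes was 0.00136. In NRK-49F, 10 members (25.6%) were called higher against 18.4% of 13339 tested genes, and 3 (7.69%) were called lower against 19.4%, with a median of 0.12 beside -0.0029 for all genes. Within number 20 alone, 17 members were called higher in NRK-49F, with Hsp90b1, Dnajc3, Manf, Xbp1, Selenos, Sec61g and Edem3 beside the 10, and within number 21 alone 6 were. The shares of all tested genes called within these numbers are not given here, so the 17 and the 6 cannot be set against a background. Without N13 the NRK-49F median was 0.22 with 12 members called higher, and without N16 it was 0.20. Leaving out N8 gave 29 higher and 3 lower in NRK-52E with a median of 0.88.

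An interaction term tested how far the pH effects of the lines differed, and in it 21 members (53.8%) had the higher effect in NRK-52E, against 19.3% of 14679 tested genes, and 2 (5.13%) the lower, against 17.5%, and without N8 or without N13 these counts were again 21 and 2. The median difference was 0.58 for the members and -0.01 for all genes. Scaling by library totals alone, without composition factors, moved the all-gene medians to -0.21 in NRK-52E and -0.25 for the interaction, and then 27 members were higher and 3 lower in NRK-52E, and 15 were higher and 5 lower in the interaction. Side by side, and against the 12470 genes tested in both lines, 10 members were higher in both (25.6%, against 9.46%), 16 were higher in NRK-52E and not called in NRK-49F (41%, against 17.5%), and Herpud1 and Sdf2l1 rose in NRK-52E but fell in NRK-49F (5.13%, against 2.23%). Os9, Edem2 and Pdia4 were lower in NRK-52E and not called in NRK-49F (7.69%, against 15%), Spcs2 was lower in NRK-49F and not called in NRK-52E (2.56%, against 6.46%), and 7 members were called in neither line (17.9%, against 30.1%).

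The members together took 1.20% ± 0.0339 (SD, n = 4) of all counts in NRK-52E at pH 7.4 and 1.95% ± 0.133 at pH 6.0, without overlap (1.16% to 1.24% and 1.75% to 2.03%). In NRK-49F the share was 1.12% ± 0.0289 at pH 7.4 and 1.29% ± 0.0980 at pH 6.0, also without overlap (1.08% to 1.16% and 1.17% to 1.41%). The groups of single members did not overlap, with pH 6.0 higher, for 28 members in NRK-52E (71.8%, against 31.5% of all tested genes) and for 11 in NRK-49F (28.2%, against 24.4%), and with pH 6.0 lower for 3 (7.69%, against 31.4%) and 5 (12.8%, against 23.8%). An exact two-sided permutation test of 4 against 4 libraries gives each of these p = 0.0286, the smallest it can give. Within the numbers in the column names, the 28 members called higher in NRK-52E had a positive log2 fold change in both 21 and 22, with medians of 1.21 and 1.18, and the 3 called lower were negative in both. Over all members the NRK-52E medians within the numbers were 0.84 and 0.96. In NRK-49F the 10 called higher and the 3 called lower also kept their sign within 20 and 21, but the median over all members was 0.29 within 20 and 0.06 within 21. Across the 39 members, the pH effects in the 2 lines, which share no library, had a Pearson r of 0.22 and a Spearman rho of 0.28, and 27 (69.2%) had the same sign. Over all 12470 genes tested in both lines r was 0.42 and 62.7% had the same sign, and genes are not independent replicates.

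**Figure D1:**
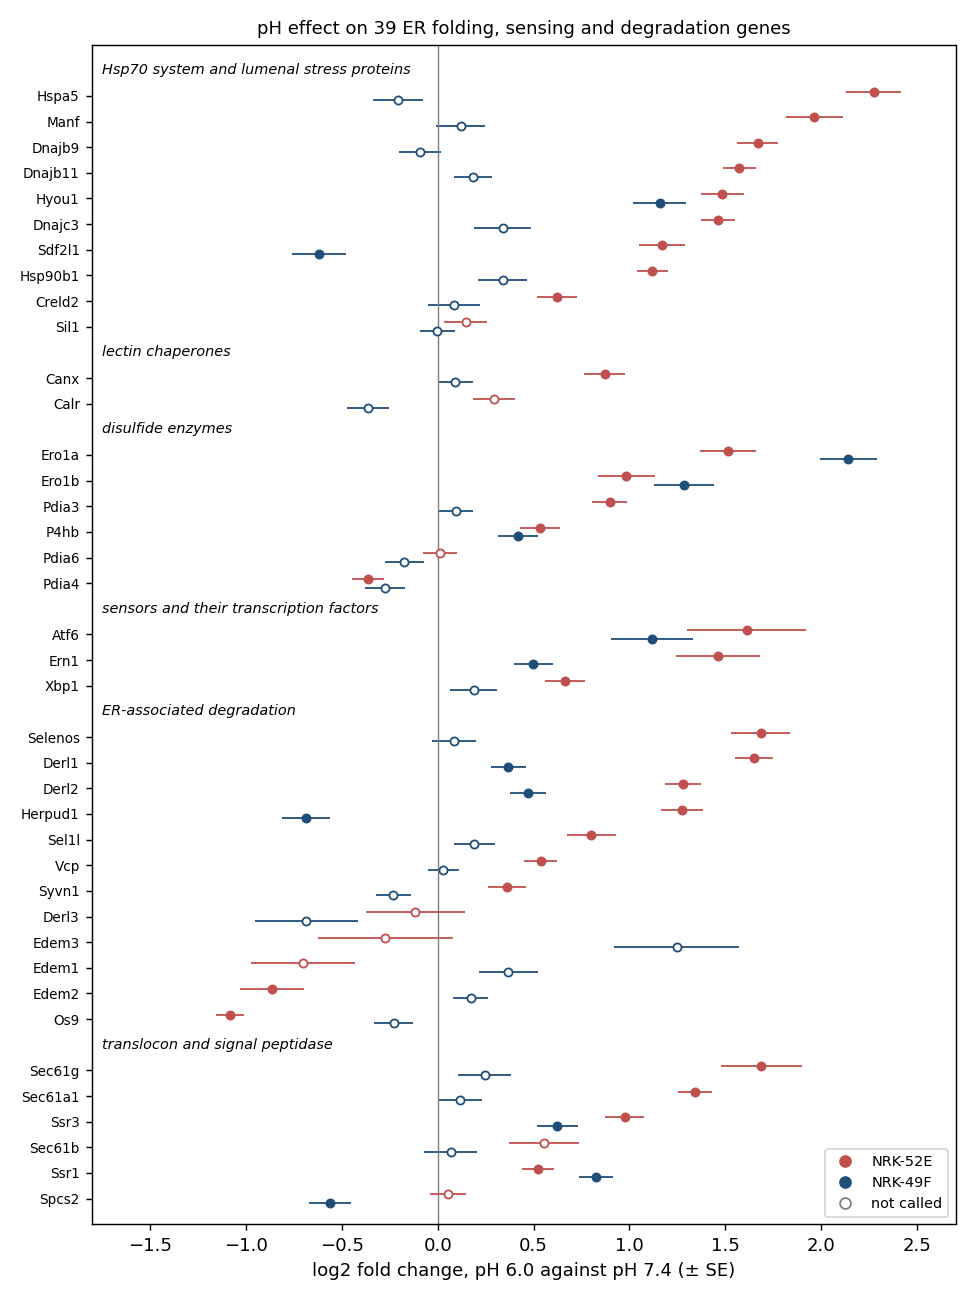
Log2 fold change at pH 6.0 against pH 7.4 (x axis, with its standard error) for each of the 39 members (y axis, grouped by class) in NRK-52E and NRK-49F, with filled points for called genes and open points for others. In NRK-52E 28 members are called higher and 3 lower, and in NRK-49F 10 and 3.

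Of the 10 genes of the Hsp70 system, 9 were called higher in NRK-52E, with a median log2 fold change of 1.47, while in NRK-49F 1 was called higher and 1 lower, with a median of 0.10. The interaction was called for 7 of the 10. Hspa5 (ENSRNOG00000018294, chromosome 3 of rn6), which encodes BiP, the Hsp70 chaperone of the ER lumen, was at 873, 828, 723 and 774 FPM in NRK-52E at pH 7.4 and at 4568, 4027, 4196 and 2889 FPM at pH 6.0. All 4 acid libraries lay far above the neutral ones, with N8 the lowest of them, and the log2 fold change was 2.27 (SE 0.143, adjusted p = 3.85e-07), or 2.39 without N8. In NRK-49F it was at 646, 619, 715 and 686 FPM at pH 7.4 and at 712, 623, 524 and 474 FPM at pH 6.0. There the groups overlapped, with N15 and N16 below all neutral libraries and N11 and N12 among them, and Hspa5 was not called, with a log2 fold change of -0.21 (SE 0.131, adjusted p = 0.207), 0.08 within number 20 and -0.51 within 21. The effects differed by 2.47 (SE 0.202, adjusted p = 3.25e-08) between the lines.

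Hyou1 (ENSRNOG00000010944, chromosome 8), a large Hsp70 relative that exchanges the nucleotide of BiP, rose in both lines. Its levels in NRK-52E were 244, 242, 216 and 211 FPM at pH 7.4 and 623, 765, 679 and 528 FPM at pH 6.0. NRK-49F libraries had 132, 125, 116 and 163 FPM at pH 7.4 and 363, 313, 288 and 241 FPM at pH 6.0. In neither line did the pH groups overlap, and the log2 fold changes were 1.48 (SE 0.111, adjusted p = 1.09e-06) in NRK-52E and 1.16 (SE 0.138, adjusted p = 2.87e-05) in NRK-49F, whose difference of 0.32 was not called. Sdf2l1 (ENSRNOG00000001859, chromosome 11), a lumenal partner of the co-chaperone Dnajb11, moved in opposite directions. It went from 23.4, 22.5, 17.5 and 24.1 FPM to 50.8, 49.3, 47.3 and 51.8 FPM in NRK-52E, and from 19.03, 17.3, 23.1 and 24.7 FPM to 14.2, 14.9, 12.4 and 13.9 FPM in NRK-49F. All acid libraries were above the neutral ones in NRK-52E (log2 fold change 1.17, SE 0.118, adjusted p = 8.48e-06) and below them in NRK-49F (-0.62, SE 0.141, adjusted p = 0.00282), where the call was lost without N15 (-0.56), and the interaction was 1.78 (SE 0.181, adjusted p = 3.88e-07). The NRK-49F call for Sdf2l1 was also lost within number 20 alone (-0.32) and within 21 alone (-0.88). Sil1 (ENSRNOG00000019826, chromosome 18), the other nucleotide exchange factor of BiP, was at 45.6, 42.8, 39.4 and 41.6 FPM and 44.7, 44.1, 44.1 and 56.7 FPM in NRK-52E, and at 83.9, 81.3, 92.2 and 93.3 FPM and 89.3, 90.9, 95.3 and 78.5 FPM in NRK-49F, at pH 7.4 and 6.0. Its groups overlapped in both lines, with N8 the highest NRK-52E library, and it was called in neither (0.15, SE 0.114, and -0.00117, SE 0.0923).

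The 6 other genes of the class were called higher in NRK-52E and not called in NRK-49F. Manf, a small lumenal stress protein that can be secreted, had log2 fold changes of 1.96 (SE 0.148) and 0.12 in the 2 lines. The J-domain co-chaperones that bring clients to BiP or stimulate its ATPase were Dnajb9 (1.67, SE 0.106, and -0.09), Dnajb11 (1.57, SE 0.084, and 0.19) and Dnajc3 (1.46, SE 0.0899, and 0.34). Hsp90b1, the Hsp90 of the ER, was at 1.12 (SE 0.0828) in NRK-52E and 0.34 in NRK-49F, where it was called without N16 (0.44), and Creld2, a secreted ER stress protein, was at 0.62 (SE 0.104) and 0.08. The interaction was called for all of these except Creld2 (0.53).

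Canx (ENSRNOG00000003343, chromosome 10), or calnexin, which holds newly made glycoproteins at the membrane, was in NRK-52E at 646, 672, 676 and 676 FPM under neutral and 1313, 1323, 1340.4 and 984 FPM under acid medium. The NRK-49F levels were 621, 591, 594 and 550.2 FPM and 674, 603, 621 and 641 FPM. The NRK-52E groups did not overlap, with N8 the lowest acid library (log2 fold change 0.87, SE 0.106, adjusted p = 3.38e-05), and the NRK-49F groups overlapped (0.09, SE 0.0894, adjusted p = 0.404). Calr (ENSRNOG00000003029, chromosome 19), or calreticulin, its soluble counterpart that also stores calcium, was at 1423, 1335, 1153 and 1249 FPM and 1842, 1604, 1583 and 1381 FPM in NRK-52E, with N8 inside the range of the neutral libraries. The NRK-49F libraries had 1405, 1272, 1523 and 1502 FPM and 1221, 1169, 1114 and 968 FPM, all acid libraries below all neutral ones. Calr was called in neither line (0.29, SE 0.11, adjusted p = 0.0334, and -0.36, SE 0.109, adjusted p = 0.0138), but without N8 it was called higher in NRK-52E (0.35), and with DESeq2 alone it was called lower in NRK-49F (-0.35). The interaction was called for both Canx (0.77, SE 0.139) and Calr (0.65, SE 0.157).

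Of the 6 disulfide enzymes, 4 were called higher and 1 lower in NRK-52E (median 0.71) and 3 were called higher in NRK-49F (median 0.26), and the interaction was called for 1, Pdia3. The oxidases that recharge protein disulfide isomerase rose in both lines. Ero1a (ENSRNOG00000006462, chromosome 15) had 36.1, 42.2, 42.7 and 40.2 FPM in neutral and 132, 125, 129 and 81.2 FPM in acid NRK-52E libraries, of which N8 was the lowest. In NRK-49F it went from 37.4, 34.3, 32.5 and 35.7 FPM to 115, 133, 191 and 186 FPM, with N15 and N16 the highest of all. No groups overlapped, and the log2 fold changes were 1.51 (SE 0.146, adjusted p = 6.14e-06) in NRK-52E and 2.14 (SE 0.149, adjusted p = 4.92e-07) in NRK-49F, the largest rise of any member in that line, with an interaction of -0.64 that was not called. Its relative Ero1b rose by 0.98 (SE 0.15) and 1.28 (SE 0.158), and P4hb, the protein disulfide isomerase itself, by 0.53 (SE 0.104) and 0.42 (SE 0.105). The P4hb call in NRK-49F was lost without N9 (0.40), N10 (0.39), N11 (0.37), N12 (0.41) or N15 (0.43).

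Pdia4 (ENSRNOG00000006228, chromosome 4), a further isomerase, went the other way. It was at 464, 438, 414 and 459 FPM and 316, 356, 361 and 365 FPM in NRK-52E, and at 556, 539, 590.3 and 486 FPM and 495, 461, 453 and 405 FPM in NRK-49F. Every acid library was below every neutral one in NRK-52E, where it was called lower (-0.36, SE 0.0826, adjusted p = 0.00239), and the groups overlapped in NRK-49F, where it was not called (-0.27, SE 0.103, adjusted p = 0.041). Pdia3, which works with calnexin and calreticulin, rose by 0.90 (SE 0.0917) in NRK-52E and was at 0.09 in NRK-49F, with an interaction of 0.79 (SE 0.124), and Pdia6 was called in neither line (0.01 and -0.17).

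The 3 genes of the sensor class were called higher in NRK-52E (median 1.46), and Atf6 and Ern1 were in NRK-49F too. Atf6 (ENSRNOG00000024632, chromosome 13) encodes a membrane-bound transcription factor that is cut free in the Golgi under ER stress. Its levels in NRK-52E were 46.3, 63.8, 64.7 and 58.6 FPM at pH 7.4 and 176, 264, 217 and 70.6 FPM at pH 6.0. In NRK-49F they were 32.2, 31.4, 14.8 and 27.5 FPM and 74.3, 59.2, 49.1 and 50.01 FPM. The groups did not overlap in either line, but N8 lay just above the neutral NRK-52E libraries and N13 was the lowest of all. The log2 fold change was 1.61 (SE 0.311, adjusted p = 8.53e-04) in NRK-52E, 1.88 without N8, and 1.12 (SE 0.214, adjusted p = 9.16e-04) in NRK-49F, 0.93 without N13, and the interaction of 0.49 (SE 0.409) was not called. In NRK-52E the call for Atf6 was lost within number 22 alone (1.19, and 1.95 within 21).

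Ern1 (ENSRNOG00000012864, chromosome 10) encodes the kinase and ribonuclease IRE1. It was at 42.9, 48.8, 55.5 and 47.9 FPM and 174, 160.03, 139 and 74.1 FPM in NRK-52E, and at 71.9, 74.2, 59.1 and 77.4 FPM and 110.03, 102, 95.4 and 95.6 FPM in NRK-49F. The acid libraries were above the neutral ones in both lines, with N8 the lowest acid one in NRK-52E, and the rise of 1.46 (SE 0.219, adjusted p = 1.48e-04) in NRK-52E (1.66 without N8) exceeded that of 0.50 (SE 0.101, adjusted p = 0.00138) in NRK-49F by 0.96 (SE 0.255, adjusted p = 0.00457). The NRK-49F call for Ern1 was lost with all 16 libraries in 1 fit (0.50) and within number 21 alone (0.46). Its NRK-52E call was lost within number 22 alone (1.01, and 1.82 within 21). Xbp1 (ENSRNOG00000010298, chromosome 14), whose messenger RNA IRE1 splices, was at 67.2, 64.4, 61.7 and 66.02 FPM and 84.9, 104, 112 and 116 FPM in NRK-52E, without overlap. NRK-49F had 108, 102, 102 and 109 FPM and 147, 127, 114 and 94.96 FPM, where N16 was the lowest library of all 8. It rose in NRK-52E (0.67, SE 0.104, adjusted p = 1.96e-04), but was not called within number 21 alone (0.48, and 0.82 within 22). In NRK-49F it was not called (0.19, SE 0.123, adjusted p = 0.216), but was called higher within number 20 alone (0.39, and -0.03 within 21), and the difference of 0.47 (SE 0.164) was not called. Gene counts sum all forms of a transcript, so the splicing of Xbp1 was not analysed here.

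**Figure D2:**
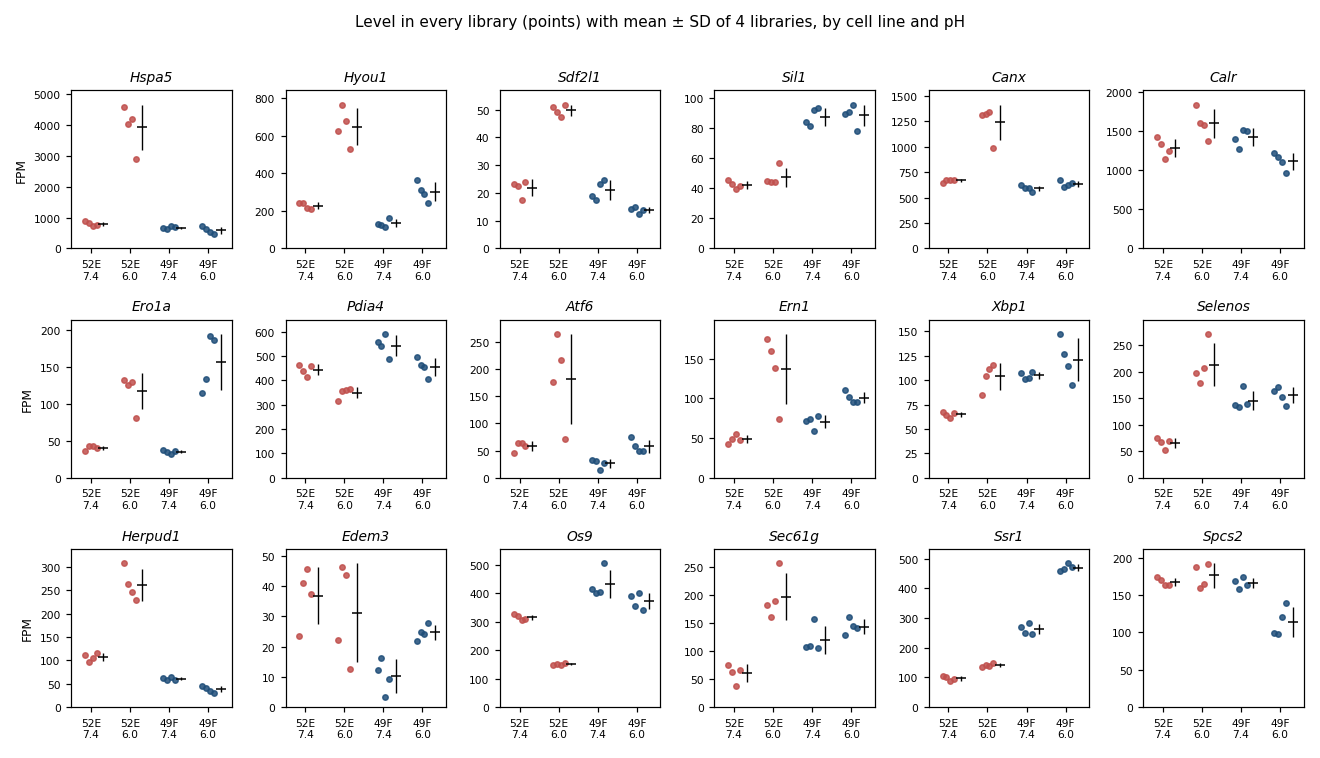
Level in FPM (y axis, linear scale, set for each gene) of the 18 named members in each library, by cell line and pH (x axis), with the mean ± SD of 4 libraries. For Hspa5 the NRK-52E libraries at pH 6.0 lie between 2889 and 4568 FPM and those at pH 7.4 between 723 and 873 FPM.

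Of 12 degradation genes, 7 were called higher and 2 lower in NRK-52E, with a median log2 fold change of 0.45, and 2 were called higher and 1 lower in NRK-49F, with a median of 0.13, while the interaction was called for 9, 7 of them with the higher effect in NRK-52E. The 7 called higher in NRK-52E were Selenos, Herpud1, Derl1, Derl2, Sel1l, Syvn1 and Vcp, and the 2 called lower were Os9 and Edem2. Selenos (ENSRNOG00000012576, chromosome 1), a membrane selenoprotein that links the ATPase Vcp to the derlins, was at 75.1, 67.03, 51.9 and 69.1 FPM and 198, 178, 207 and 271 FPM in NRK-52E. Levels of NRK-49F were 137, 134, 173 and 139 FPM and 164, 172, 153 and 135 FPM. The NRK-52E groups lay apart, with N8 the highest (1.68, SE 0.154, adjusted p = 4.17e-06, 1.54 without N8), and the NRK-49F groups overlapped, with N13 the highest of the 8 (0.09, SE 0.115, adjusted p = 0.548).

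Herpud1 (ENSRNOG00000018796, chromosome 19), a membrane protein of the Hrd1 ligase complex, moved in opposite directions in the lines. Its levels went from 110.5, 95.9, 105 and 116 FPM to 307, 263, 247 and 228 FPM in NRK-52E. They went from 62.1, 58.5, 64.7 and 57.2 FPM to 44.5, 41.7, 34.99 and 31.03 FPM in NRK-49F. No library crossed into the other group, and the log2 fold changes were 1.27 (SE 0.108, adjusted p = 2.48e-06) and -0.69 (SE 0.124, adjusted p = 5.97e-04), an interaction of 1.95 (SE 0.166, adjusted p = 4.84e-08). The derlins, which take part in moving proteins across the membrane, were at 1.65 (SE 0.0979) for Derl1 and 1.28 (SE 0.095) for Derl2 in NRK-52E, and at 0.37 (SE 0.0901) and 0.47 (SE 0.0945) in NRK-49F, all 4 called higher, with both interactions called. The NRK-49F call of Derl1 was lost without N9 (0.37), N10 (0.33), N11 (0.33) or N12 (0.34). Derl3 was called in neither line (-0.12, SE 0.258, and -0.68, SE 0.267). Sel1l, the adaptor of the Hrd1 ligase (0.80, SE 0.126), Vcp, which pulls proteins out of the membrane (0.54, SE 0.0841), and Syvn1, the ligase Hrd1 itself (0.36, SE 0.0979), were called higher in NRK-52E and not called in NRK-49F, with the interaction called for each. The pH groups of Syvn1 overlapped, and its call was lost without N2 (0.33), N4 (0.33), N5 (0.32), N6 (0.31) or N7 (0.37), and with library totals (0.16), no filter on low counts (0.33) or the column number as a covariate (0.36).

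Os9 (ENSRNOG00000025570, chromosome 7), a lectin that delivers misfolded glycoproteins to the ligase, fell in NRK-52E. It was at 326, 319, 307 and 309.8 FPM and 147, 153, 148 and 155 FPM there, and at 417, 401, 404 and 506 FPM and 389.6, 356, 402 and 341 FPM in NRK-49F. All acid libraries were below all neutral ones in NRK-52E (-1.08, SE 0.0728, adjusted p = 5.46e-07), and the NRK-49F groups overlapped, with N14 the highest (-0.23, SE 0.101, adjusted p = 0.073), an interaction of -0.87 (SE 0.124, adjusted p = 1.76e-05). The mannosidase-like genes Edem1, Edem2 and Edem3 mark glycoproteins for this step. Edem2 fell by 0.86 on the log2 scale in NRK-52E (SE 0.167) and was at 0.17 in NRK-49F, with an interaction of -1.05. Edem1 was at -0.70 (SE 0.27) in NRK-52E, not called but called lower without N4 (-1.06), and at 0.37 in NRK-49F. Edem3 (ENSRNOG00000028358, chromosome 13) was at 23.5, 41.1, 45.6 and 37.4 FPM and 22.3, 46.3, 43.6 and 12.6 FPM in NRK-52E, with overlap and with N8 the lowest. NRK-49F libraries were at 12.4, 16.2, 3.16 and 9.25 FPM and 21.9, 24.9, 24.1 and 27.8 FPM, where every acid library was above every neutral one and N13 was the lowest. It was called in neither line: in NRK-52E its log2 fold change was -0.27 (SE 0.352, adjusted p = 0.507), and in NRK-49F it was 1.25 (SE 0.326, adjusted p = 0.00668) in edgeR, while DESeq2 gave an adjusted p of 0.013. It was called higher in NRK-49F without N10 (1.56) or without N13 (0.96), and with the column number as a covariate (1.34).

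Of the 6 genes of the translocon, which passes new chains into the ER, and the signal peptidase, 4 were called higher in NRK-52E (median 0.77), and 2 were called higher and 1 lower in NRK-49F (median 0.18). Sec61g (ENSRNOG00000005203, chromosome 14), the small gamma subunit of the Sec61 channel, was at 75.7, 62.5, 37.7 and 66.3 FPM and 181, 161, 189 and 256 FPM in NRK-52E. Those of NRK-49F had 108, 108, 157 and 105 FPM and 128, 159.97, 145 and 141 FPM. N5 was the lowest and N8 the highest NRK-52E library, without overlap of the groups (1.69, SE 0.211, adjusted p = 3.98e-05), and the NRK-49F groups overlapped through N13 (0.25, SE 0.138, adjusted p = 0.151, and called higher at 0.41 without N13). Sec61a1, the channel itself, rose by 1.34 (SE 0.0878) in NRK-52E and was at 0.12 in NRK-49F, and the interaction was called for both Sec61a1 (1.21) and Sec61g (1.42). Sec61b was called in neither line (0.56, SE 0.182, and 0.07).

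Ssr1 (ENSRNOG00000014165, chromosome 17), a subunit of the complex that assists the channel, rose in both lines. It was at 105, 101, 88.5 and 92.9 FPM and 134, 141, 138 and 150.2 FPM in NRK-52E, and at 268, 251, 284 and 246 FPM and 457, 465, 485 and 474 FPM in NRK-49F. The groups did not overlap in either line (0.52, SE 0.0843, adjusted p = 2.45e-04, and 0.83, SE 0.0873, adjusted p = 1.15e-05), nor did the lines at either pH. Its partner Ssr3 rose by 0.98 (SE 0.102) in NRK-52E and 0.62 (SE 0.108) in NRK-49F, and neither interaction was called (-0.32 and 0.34). Spcs2 (ENSRNOG00000018164, chromosome 1), a subunit of the signal peptidase, was at 174, 169.9, 164 and 164 FPM and 188, 159.8, 165 and 192 FPM in NRK-52E, with overlap. In NRK-49F it was at 169, 158, 174 and 164 FPM and 98.8, 97.9, 120.1 and 139 FPM, all acid libraries below the neutral ones. It was not called in NRK-52E (0.05, SE 0.0923, adjusted p = 0.622) and fell in NRK-49F (-0.56, SE 0.111, adjusted p = 0.00116), with an interaction of 0.60 (SE 0.148).

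The lines were also compared at each pH, as NRK-52E against NRK-49F, and these comparisons share libraries with the pH effects. At pH 7.4, 5 members (12.8%) were called higher in NRK-52E, where 27.9% of 14679 tested genes were, and 16 (41.0%) lower, where 31.9% were, with a median log2 difference of -0.29 beside -0.05 for all genes. With library totals alone the all-gene median was 0.34 and 16 members were higher and 9 lower. Dropping the composition factors shifts all genes alike, so these counts moved with the scaling. The members' median minus that of all genes was -0.238 in the main fit and -0.235 with library totals, so their place among all genes stayed about the same. At pH 6.0, 21 members (53.8%) were called higher, against 30.7% of the tested genes, and 9 (23.1%) lower, against 32.5%, with a median of 0.44 beside -0.02, and 24 and 7 with library totals. Without N8 the counts were 5 and 18 at pH 7.4 and 20 and 10 at pH 6.0, and without N13 they were as in the main fit. The groups of the lines did not overlap, with NRK-52E higher, for 8 members at pH 7.4 (20.5%, against 31.8% of all tested genes) and 23 at pH 6.0 (59%, against 30.4%), and with NRK-52E lower for 20 (51.3%, against 37.3%) and 9 (23.1%, against 32.7%). Hspa5 was at 0.26 (SE 0.141) at pH 7.4, not called, and at 2.73 (SE 0.15) at pH 6.0. Herpud1 was at 0.81 (SE 0.117) and 2.77 (SE 0.123), called at both, and Ssr1 was lower in NRK-52E at both (-1.44 and -1.76). P4hb was lower in NRK-52E as well (-1.11 and -1.01), and Selenos went from -1.15 at pH 7.4 to 0.44 at pH 6.0, called at both.

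Other genes of the same pathways were counted on 5 lists, beside which 28.2% of all tested genes were called higher and 28.5% lower in NRK-52E, and 18.4% and 19.4% in NRK-49F. For the partners of the sensors and the branch of PERK and ATF4, 18 of 23 tested genes were higher and 3 lower in NRK-52E (78.3% and 13%, median 1.16), and 8 and 2 of 23 in NRK-49F (34.8% and 8.7%, median 0.23). In NRK-52E the pseudokinase Trib3, which this branch induces, averaged 5.82 ± 1.18 FPM (SD, n = 4) in neutral and 166 ± 45.7 FPM in acid medium (log2 fold change 4.81, SE 0.225), and rose by 1.75 (SE 0.31) in NRK-49F. The transcription factor Atf3 rose by 4.66 (SE 0.372) and 2.79 (SE 0.267) in the 2 lines. In NRK-52E the lowest were Atf6b, the paralogue of Atf6 (-1.12, SE 0.145), and Creb3l2, a related membrane-bound factor (-1.05, SE 0.285, with overlapping groups). In NRK-49F they were Mbtps1, the protease that cuts Atf6 (-0.59, SE 0.0978), and Atf6b (-0.42, SE 0.0924). Chosen after their values were seen, Eif2ak3, which encodes PERK, averaged 59.7 ± 0.939 and 128 ± 15.2 FPM in NRK-52E (1.08, SE 0.091), Atf4 averaged 245 ± 29.8 and 903 ± 191 FPM (1.86, SE 0.151), and Ddit3, its target CHOP, 41.3 ± 4.23 and 219 ± 54.4 FPM (2.39, SE 0.168). These 3 were called higher in NRK-52E and not called in NRK-49F (0.22, 0.26 and 0.32), and each interaction was called (0.85, 1.59 and 2.06).

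Of other lumenal folding enzymes, 12 of 37 tested genes were higher and 6 lower in NRK-52E (32.4% and 16.2%, median 0.09), and 12 and 9 of 36 in NRK-49F (33.3% and 25%, median 0.16). Apart from Clgn, the highest in NRK-52E was the thioredoxin-domain gene Txndc11 (2.76, SE 0.0927). Clgn, a relative of calnexin, was called higher there and is not ranked. It had 0 to 3 counts a library in neutral and 18 to 57 in acid medium, too few in neutral medium to give a fold change. The lowest in NRK-52E were Cnpy4 (-1.89, SE 0.298) and the lumenal chaperone Erp29 (-1.62, SE 0.153). In NRK-49F the highest were Lman1, a cargo receptor for glycoproteins (1.71, SE 0.146), and the isomerase Pdia5 (1.515, SE 0.153), and the lowest were the peroxidase Gpx7 (-1.50, SE 0.12) and the prolyl isomerase Fkbp7 (-1.36, SE 0.105). Among other degradation genes, 23 of 41 were higher and 5 lower in NRK-52E (56.1% and 12.2%, median 0.58), and 12 and 9 of 40 in NRK-49F (30% and 22.5%, median 0.09). The rhomboid protease Rhbdd1 rose in both (2.101, SE 0.165, and 0.98, SE 0.135), Dnajb2 rose in NRK-52E (1.40, SE 0.0794) and the ligase gene Marchf6 in NRK-49F (1.35, SE 0.186). The lowest were Ubxn8 (-1.21, SE 0.142) and Erlin2 (-1.10, SE 0.128) in NRK-52E, and the ligase gene Rnf139 (-0.70, SE 0.131) and Ubxn8 (-0.61, SE 0.14) in NRK-49F.

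For targeting, translocation and glycosyl transfer, 19 of 28 genes were higher and 3 lower in NRK-52E (67.9% and 10.7%, median 0.66), and 9 and 1 in NRK-49F (32.1% and 3.57%, median 0.28). Srp68, of the signal recognition particle (1.56, SE 0.108), and Srpra, of its receptor (1.49, SE 0.0786), were the highest in NRK-52E, and Sec11c, a catalytic subunit of the signal peptidase (1.18, SE 0.138), and Srpra (1.12, SE 0.152) in NRK-49F. Tram2 (-2.16, SE 0.218) and Tusc3, a subunit of the glycosyl transferase (-1.36, SE 0.119), were the lowest in NRK-52E, and Tusc3 was the 1 gene called lower in NRK-49F (-0.79, SE 0.134). Of transcripts known to be cut by IRE1, 1 of 4 tested genes was higher and 2 lower in NRK-52E (25% and 50%), and 1 and 4 of 5 in NRK-49F (20% and 80%). Bloc1s1 fell in both lines (-1.06, SE 0.188, and -1.04, SE 0.161), as did Ergic3 (-1.05, SE 0.119, and -1.17, SE 0.13), and Tapbp rose in both (0.80, SE 0.0721, and 0.52, SE 0.0869). Pmp22 fell in NRK-49F (-1.33, SE 0.104) and was not called in NRK-52E (-0.63, SE 0.185), and Scara3 fell in NRK-49F (-0.52, SE 0.102) and was not tested in NRK-52E. Of the 4 tested in both lines, the interaction was called for Pmp22. Uggt2, Srp72, Srprb, Tmem258 and Hgsnat, which are on the lists, and the marker Pecam1 were not analysed here.

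**Figure D3:**
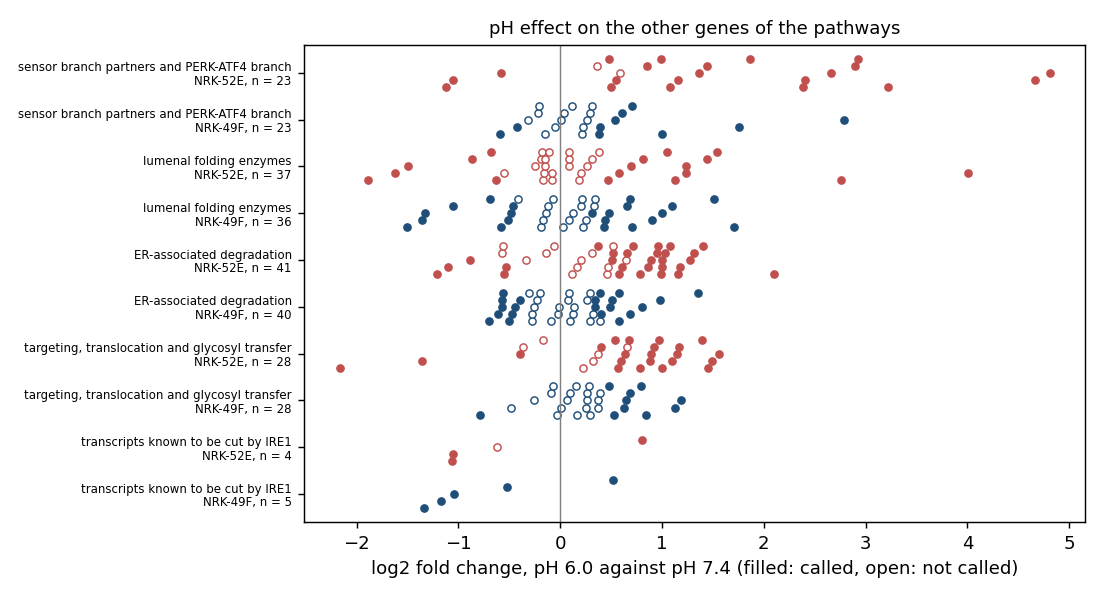
Log2 fold change at pH 6.0 against pH 7.4 (x axis) of the tested genes on the 5 lists of other pathway genes in NRK-52E and NRK-49F (y axis). Each point is 1 gene, filled where called and open where not, and the vertical line marks no change. Medians are not drawn. For the sensor-partner and PERK list the NRK-52E median is 1.16 and the NRK-49F median 0.23, and that of the other lumenal folding enzymes is 0.09 and 0.16.

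Promoters of RefSeq (build GRCr8), 250 bases before to 50 after each gene's start, were searched on both strands for 3 motifs known from ER stress genes. The ER stress response element (ERSE) is CCAAT, 9 bases and CCACG, its variant ERSE-II is ATTGG, 1 base and CCACG, and the core of the unfolded protein response element is TGACGTG. By symbol, 30 of the 39 members matched, and Pdia6, Manf, Atf6, Pdia3, Ero1a, Derl1, Ern1, Sec61a1 and Os9 have no entry. ERSE was in 9 of the 30 (30%), against 21 of 27457 genes of the table (0.0765%), ERSE-II in 3 (10%), against 17 genes (0.0619%), and the core in 3 (10%), against 555 genes (2.02%). ERSE or ERSE-II was in 12 of 30 (40%), against 38 genes (0.138%). These 12 were Hspa5, Hsp90b1, Creld2, Canx, Xbp1, Dnajc3, Ero1b, Calr and Derl3 with ERSE, and Hyou1, Dnajb11 and Herpud1 with ERSE-II. Of the 12, 10 were called higher in NRK-52E (median log2 fold change 1.05), and in NRK-49F 2 were higher and 1 lower (median 0.14). Of the other 18, 11 were higher and 2 lower in NRK-52E (median 0.53), and 4 and 2 in NRK-49F (median 0.13). Of all tested genes, 28.2% were higher and 28.5% lower in NRK-52E, and 18.4% and 19.4% in NRK-49F. Whether the motifs had a part in these calls was not tested. A match is a description of letters in this window. The motifs were taken because they are known from ER stress genes, and many members are such genes. The members are also counted among the genes of the table. Their higher share is therefore a description and no test.

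Whole windows are shown for a member called in NRK-52E alone (Hspa5), in both lines (Hyou1), in opposite directions (Herpud1) and in neither (Calr), and for the transcription factor Xbp1, written 5′ to 3′ on the gene's strand with the motifs in capitals. In Hspa5 the capitals mark the core and then an ERSE, in Hyou1 an overlapping core (bases 60 to 66) and ERSE-II (bases 63 to 73) and then another ERSE-II, in Herpud1 an ERSE-II, and in Calr and Xbp1 an ERSE. Another Hyou1 window of the same table (chr8:53602822-53603121, plus strand) has 0 motifs and is not shown.
Hspa5 (chr3:38452766-38453065, plus strand): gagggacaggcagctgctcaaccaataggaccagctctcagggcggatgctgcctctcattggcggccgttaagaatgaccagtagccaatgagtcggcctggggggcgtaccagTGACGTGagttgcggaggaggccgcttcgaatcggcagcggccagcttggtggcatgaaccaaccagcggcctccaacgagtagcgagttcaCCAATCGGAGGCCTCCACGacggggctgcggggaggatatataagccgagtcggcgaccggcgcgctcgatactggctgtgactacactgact
Hyou1 (chr8:53602632-53602931, plus strand): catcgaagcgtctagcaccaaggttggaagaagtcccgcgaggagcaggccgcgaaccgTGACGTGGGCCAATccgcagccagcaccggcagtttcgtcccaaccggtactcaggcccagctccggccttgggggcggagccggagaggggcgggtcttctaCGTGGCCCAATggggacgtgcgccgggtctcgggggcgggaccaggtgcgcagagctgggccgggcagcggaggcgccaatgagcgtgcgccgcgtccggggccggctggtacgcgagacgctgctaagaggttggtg
Herpud1 (chr19:10614658-10614957, minus strand): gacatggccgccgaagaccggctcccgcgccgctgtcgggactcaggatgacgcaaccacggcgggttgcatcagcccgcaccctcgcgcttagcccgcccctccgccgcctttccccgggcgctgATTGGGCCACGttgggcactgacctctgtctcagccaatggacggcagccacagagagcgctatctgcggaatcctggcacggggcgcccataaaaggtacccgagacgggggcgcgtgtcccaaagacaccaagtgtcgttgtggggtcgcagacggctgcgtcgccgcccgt
Calr (chr19:40213117-40213416, plus strand): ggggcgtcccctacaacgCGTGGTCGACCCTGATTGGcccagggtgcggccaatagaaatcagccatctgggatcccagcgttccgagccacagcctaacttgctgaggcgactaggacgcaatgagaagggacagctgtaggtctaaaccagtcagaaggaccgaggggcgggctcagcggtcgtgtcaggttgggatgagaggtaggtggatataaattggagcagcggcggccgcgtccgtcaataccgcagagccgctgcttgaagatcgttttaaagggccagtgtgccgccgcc
Xbp1 (chr14:84604373-84604672, plus strand): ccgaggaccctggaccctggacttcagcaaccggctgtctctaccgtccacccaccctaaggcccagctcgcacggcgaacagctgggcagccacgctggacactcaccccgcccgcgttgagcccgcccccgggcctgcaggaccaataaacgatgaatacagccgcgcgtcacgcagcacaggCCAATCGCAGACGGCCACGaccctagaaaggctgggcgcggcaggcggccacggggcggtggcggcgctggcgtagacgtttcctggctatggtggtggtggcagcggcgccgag

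The motifs of the other members with ERSE or ERSE-II are shown alone, since the letters between the fixed ends differ from gene to gene. An ERSE begins with CCAAT where it lies on the gene's strand, and with CGTGG where it lies on the opposite strand. The core in Vcp (bases 28 to 34 of its window) is the remaining match.
Hsp90b1 (bases 75 to 93 of chr7:23012244-23012543, minus strand): CCAATCGAAAGGAGCCACG
Hsp90b1 (bases 179 to 197 of chr7:23012244-23012543, minus strand): CGTGGTGAGGCACGATTGG
Creld2 (bases 106 to 124 of chr7:121789134-121789433, plus strand): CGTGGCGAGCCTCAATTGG
Canx (bases 21 to 39 of chr10:35157808-35158107, minus strand): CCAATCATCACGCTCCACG
Dnajc3 (bases 118 to 136 of chr15:102432417-102432716, plus strand): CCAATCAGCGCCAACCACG
Ero1b (bases 27 to 45 of chr17:92941432-92941731, plus strand): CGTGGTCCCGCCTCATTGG
Derl3 (bases 97 to 115 of chr20:12766416-12766715, minus strand): CGTGGGACTTCCTTATTGG
Dnajb11 (bases 241 to 251 of chr11:91672751-91673050, minus strand): ATTGGCCCACG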

How the data were processed

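The authors deposited raw fragment counts for 32623 Ensembl genes of rn6 in 16 libraries. Their processing notes name HISAT2 2.1.0 and featureCounts, while the paper's methods name another aligner. Multi-mapping fragments were counted, and the use of strand is not stated. In R 4.3.3, FPM were computed with edgeR's cpm function and TMM factors. Each line's pH effect (8 libraries), and in 1 fit of all 16 the interaction and the line differences, were tested with edgeR 4.0.16 (quasi-likelihood, filterByExpr) and DESeq2 1.42.0 (Wald test), Benjamini-Hochberg adjusted over all tested genes and called below 0.01 in both. Log2 fold changes, SEs and adjusted p-values are edgeR's. For single members, log2(FPM + 1) was also compared by exact permutation, two-sided. The tests of the NRK-52E pH effect and the interaction were also run on simulated counts with known changes. There all genes had the same setting of spread between libraries, and fewer genes changed than were called here. That run therefore does not measure error rates on these data. Levels of every library are given for Hspa5, Xbp1, Atf6, Ern1 and, in each class and line, the member with the highest and the lowest log2 fold change, and of the other lists the 2 highest and 2 lowest called genes of each line are named. Members and lists were chosen with earlier results of these data known. Alternatives were scaling, filters, thresholds, each tool alone, the number in the column names and each library left out. Planned protein features were not analysed here. The level of 1 gene in the marker sums is not reported here.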

Additional observations from a re-analysis of the deposited data

Results flagged for a closer look

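The pH effect differed between the cell lines, by the interaction test, for 23 of 39 members. In log2 units, NRK-52E minus NRK-49F, the differences with the higher effect in NRK-52E were Hspa5 2.47, Hsp90b1 0.77, Dnajb9 1.75, Dnajb11 1.38, Dnajc3 1.11, Sdf2l1 1.78, Manf 1.83, Calr 0.65, Canx 0.77, Pdia3 0.79, Ern1 0.96, Herpud1 1.95, Sel1l 0.60, Syvn1 0.58, Derl1 1.27, Derl2 0.80, Selenos 1.58, Vcp 0.50, Sec61a1 1.21, Sec61g 1.42 and Spcs2 0.60. Those with the lower effect in NRK-52E were Edem2 -1.05 and Os9 -0.87.

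In 156 groups of 4 libraries (39 members in 4 groups), 12 held a library set apart from the other 3, where chance gives about 1 in 20 groups. Set apart means that its gap to the nearest library, as a share of the range of the 4, was above Dixon's critical value for 1 in 20, which measures the gap against the spread and not its size. In NRK-52E at pH 6.0, N8 was above the others for Sil1 (56.7 FPM) and below them for Canx (984 FPM), Ero1a (81.2 FPM) and Vcp (599.5 FPM), and N3 was below for Pdia4 (316 FPM). In NRK-49F at pH 7.4, N13 was above for Selenos (173 FPM), Sec61b (121 FPM) and Sec61g (157 FPM), and N14 for Os9 (506 FPM). In NRK-52E at pH 7.4, N1 was below for Canx (646 FPM, a log2 ratio of -0.0628 to the mean of the other 3) and above for Syvn1 (128 FPM). In NRK-49F at pH 6.0, N11 was above for Dnajb11 (63.8 FPM, a log2 ratio of 0.0588). Atf6 in N8 (-1.62) and Edem3 in N13 (-1.71) had larger ratios but were not set apart by this measure. The part of these libraries in the results was not tested beyond leaving each out.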

How the results depend on the processing

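Alternatives were scaling in edgeR by size factors of DESeq2 or by totals alone, no filter on low counts or 1 CPM in 4 libraries, all 16 libraries in 1 fit, each tool alone, an FDR of 0.05, the number in the column names as a covariate, the libraries of 1 number alone, and each library left out. Of the called members, 1 changed sign under any of them: Derl1, between lines at pH 7.4 with library totals, where it was not called. Main counts of members called were 28 higher and 3 lower for NRK-52E, 10 and 3 for NRK-49F, 21 and 2 in the interaction, 5 and 16 between lines at pH 7.4, and 21 and 9 at pH 6.0, and the counts below are those that moved by over 1.5 times. With library totals, 5 members were lower in the interaction, and 16 were higher and 9 lower between lines at pH 7.4. With DESeq2 alone, 4 were lower in the interaction and 8 higher at pH 7.4. At an FDR of 0.05, 5 were lower in NRK-49F and 6 in the interaction. With 2 libraries against 2, fewer calls can be made: number 22 alone gave 18 higher and 1 lower in NRK-52E, and number 21 alone gave 6 higher and 1 lower in NRK-49F, but number 20 alone gave 17 higher there, and the cause was not tested. The shares of all tested genes called in these fits are not given here. The NRK-52E median (0.90) was 0.69 with library totals, 0.84 within 21 and 0.96 within 22, and the NRK-49F median (0.12) was 0.29 within 20. Leaving out each library gave 27 to 29 higher, 3 to 4 lower and a median of 0.86 to 0.94 for NRK-52E, and 8 to 12 higher, 2 to 3 lower and a median of 0.10 to 0.22 in NRK-49F. It gave 19 to 25 members called in the interaction (17 to 22 higher, 2 to 3 lower), 19 to 23 between lines at pH 7.4 (5 to 7 and 14 to 18), and 28 to 30 at pH 6.0 (19 to 21 and 9 to 10). Of the members called higher, 27 of 28 for NRK-52E and 8 of 10 for NRK-49F kept their call whichever library was left out, as did 3 of 3 and 2 of 3 called lower. No paired analysis was possible because the library numbers are unique and the labels do not tie an insert to the well it stood in. Library totals from 16201084 to 34784862 limit the precision for genes with few counts, and multi-mapping fragments make counts of near-identical genes uncertain.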
